A study of Mus musculus with 19 samples.

Results

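The 10 genes described here are 5 transcription factors of the epithelial-mesenchymal transition (EMT), Snai1, Snai2, Zeb1, Zeb2 and Twist1, the cadherins Cdh1 and Cdh2, the intermediate filament gene Vim, the membrane glycoprotein podoplanin (Pdpn) and the matrix gene Fn1. They were taken by name from the 24689 genes measured in the tongue epithelia of 19 mice. All 10 were present, and 9 of them passed the filter on low values used for testing, with Cdh2 as the exception.

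In EMT, epithelial cells lose the contacts that hold them in a sheet and take on a motile, mesenchymal form. Factors of the Snail, Zeb and Twist families bind E-box elements and repress Cdh1, which encodes the E-cadherin of adherens junctions, and mesenchymal cells carry N-cadherin (Cdh2), vimentin (Vim) and fibronectin (Fn1). Carcinoma cells of squamous epithelia often stop at a partial state that keeps Cdh1, and podoplanin, a mucin-like protein that links to the actin cortex through ezrin and moesin, is known from the invasive edge of such tumors and from lymphatic endothelium.

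The study asked what the HPV16 oncogenes E6-E7 and an active form of the transcriptional coactivator YAP do, alone and together, in the oral epithelium of adult mice. Krt14-CreERT is a Cre recombinase that tamoxifen activates in basal epithelial cells, where it removes a stop cassette from LSL-rtTA, and rtTA with doxycycline then switches on tetON transgenes. The E group (5 mice) carried Krt14-CreERT, LSL-rtTA and tetON_E6-E7, the Y group (3 mice) Krt14-CreERT, LSL-rtTA and tetON_YAP1S127A, and the EY group (6 mice) all 4 alleles. These genotypes are those of the sample labels, which do not list the tetON_H2B-GFP reporter named in the methods. Of the 5 control mice, called N, mice 1 to 3 carried Krt14-CreERT and LSL-rtTA, mouse 4 carried LSL-rtTA without a Cre, and mouse 5 carried Krt14-CreERT with both tetON transgenes but without rtTA. The mice were littermates of 8 to 16 weeks that received 3 doses of tamoxifen into the tongue and doxycycline in the chow, and RNA was taken 15 days after induction from the epithelium after collagenase and dispase had freed it from the muscle. The transgenes are thus limited to cells that had expressed Krt14 and their offspring, whereas the RNA is that of every cell left in the peeled sheet. A lower level in such bulk RNA can come from fewer cells of a type or from less RNA per cell, and these cannot be told apart here.

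The deposited values are TPM, in which reads are divided by a gene length and scaled to 1000000 per mouse. The values of each gene were whole multiples of a step, so the reads behind them could be recovered, 8269674 to 11007304 per mouse. The 22745 genes that reached 0.1 TPM in 3 or more mice were compared with limma on log2(TPM + 0.1). A fold change on this scale understates the change of low genes. A gene was called when its Benjamini-Hochberg adjusted p over all 22745 genes was below 0.01 and its log2 fold change was beyond 1 in either direction, the thresholds of the study.

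The recovered steps also showed which length had been used. In 23575 of the 23805 genes with a single match in the GENCODE mouse annotation, the length behind the TPM was within 10% of proportional to the whole gene span, introns included, and in 1426 genes to the summed exons. A single read was worth 0.264 TPM in Twist1, a gene with little intron, and 0.0031 TPM in Zeb1 and 0.00259 TPM in Cdh2, whose introns are long. The filter and the pseudocount of 0.1 TPM therefore stood for under 1 read of Twist1 but for many reads of Zeb1. Within a gene the mice can be compared in either unit, but levels of different members were compared with each other only after the recovered reads had been divided by exon length. Elsewhere, where a gene is called abundant or said to lead a list, the order is that of deposited TPM, which places genes with long introns too low.

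**Figure D1:**
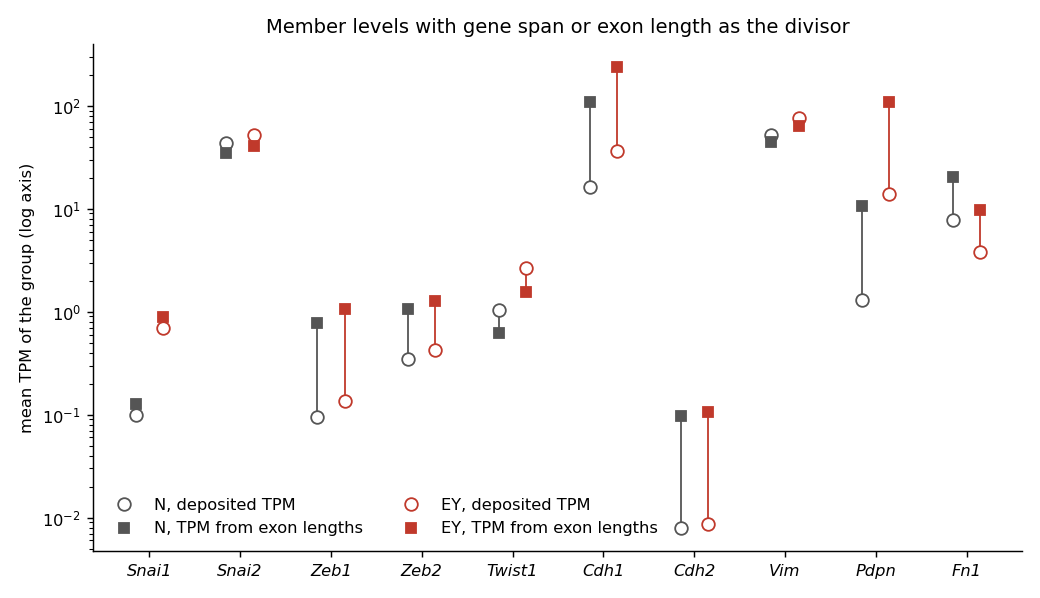
Mean TPM of each member in N and EY epithelia on a log axis, as deposited with gene spans as the divisor (open circles) and recomputed from the recovered reads with exon lengths (squares); lines join the same group. Cdh1 in N moves from 16.4 to 109 TPM and Zeb1 from 0.0947 to 0.769 TPM, whereas Snai2 moves from 43.7 to 34.8 TPM.

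With exon lengths, Cdh1 was the most abundant member in control epithelium at 109 ± 21.2 TPM (SD, n = 5), followed by Vim at 44.7 ± 34.9 TPM and Snai2 at 34.8 ± 7.23 TPM. Fn1 stood at 20.5 ± 22.2 TPM and Pdpn at 10.6 ± 4.42 TPM. This order is that of the means. By median Snai2 (34.6 TPM) was above Vim (25.5 TPM), and Pdpn (11.5 TPM) above Fn1 (9.31 TPM). Zeb2 (1.05 ± 1.07 TPM), Zeb1 (0.769 ± 0.626 TPM), Twist1 (0.617 TPM, from 0 to 1.57), Snai1 (0.128 ± 0.133 TPM) and Cdh2 (0.0979 ± 0.0998 TPM) were all low, and each varied several-fold between mice or was at 0 in some. Of the 5 EMT factors, Snai2 was thus the single one at a level well above the others in the RNA of the peeled sheet. In EY epithelia Pdpn reached 108 ± 68.8 TPM (n = 6) on the same scale, next to 238 ± 47 TPM for Cdh1. All further TPM are as deposited.

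**Figure D2:**
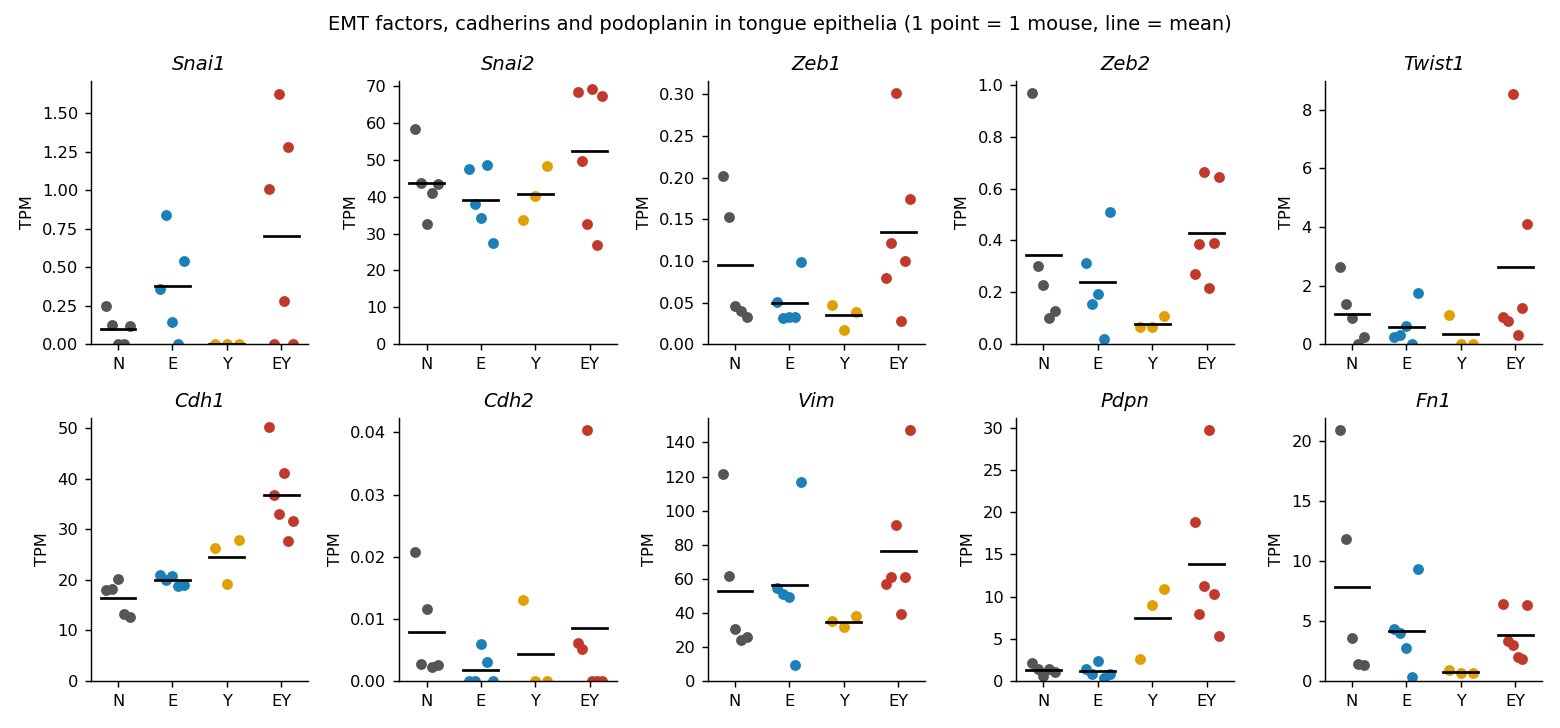
Deposited TPM of the 10 members in N (5 mice), E (5), Y (3) and EY (6) epithelia, with a linear axis from 0 in each panel; each point is a mouse and each line the group mean. In the Cdh1 and Pdpn panels every EY mouse lies above every N mouse, and in the other panels the EY and N mice overlap.

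Podoplanin had the largest change of the members in EY against N. Its TPM in the 5 N mice was 2.07, 1.42, 0.577, 1.44 and 1.04, and in the 5 E mice 1.43, 0.806, 2.40, 0.395 and 0.859. The 3 Y mice had 2.58, 9.05 and 10.9 TPM, and the 6 EY mice ran from 5.30 through a median of 10.8 to 29.7 TPM. All 6 EY mice and all 3 Y mice lay above the highest N mouse, while N and E overlapped throughout and Y and EY overlapped as well. Behind these values stood 19 to 117 reads in each N and E mouse, 115 to 536 per Y mouse and 288 to 1488 per EY mouse. In order, the group means were 13.9 ± 8.98 (EY), 7.51 ± 4.37 (Y), 1.31 ± 0.554 (N) and 1.18 ± 0.777 TPM (E), with no step between EY and Y or between N and E that exceeded the spread between mice.

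Against N, Pdpn rose by 3.18 ± 0.49 on the log2 scale in EY (± SE, 6 against 5 mice, adjusted p = 4.88e-05). In Y it was 2.30 ± 0.60 above N (3 against 5 mice) with an adjusted p of 0.0133, past 0.05 but not past the 0.01 of the call. In E the difference was -0.25 ± 0.52 (adjusted p = 0.897), with a 95% interval from -1.34 to 0.84. Adding active YAP to the oncogenes, EY against E, gave a called rise of 3.43 ± 0.49 (adjusted p = 3.27e-05). Adding the oncogenes to active YAP, EY against Y, gave 0.89 ± 0.58 (adjusted p = 0.37, interval -0.33 to 2.10), and the interaction, the EY effect beyond what E and Y add up to, was 1.14 ± 0.77 (adjusted p = 0.553, interval -0.50 to 2.77). A contribution of E6-E7 to Pdpn was therefore not shown, and the intervals leave room for a sizeable one.

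The Y result rested on few mice. Without Y mouse 1, the lowest of the 3, Pdpn was 2.93 above N and called (adjusted p = 0.0053). Without Y mouse 2 or 3 the difference was 2.05 and 1.91, with adjusted p of 0.0621 and 0.0901. Leaving out EY mouse 4, which alters only the shared estimate of spread, also took it past the call.

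Podoplanin is a marker of lymphatic endothelium too, so the levels of that cell type are given beside it. All 4 marker genes of the list (Lyve1, Prox1, Flt4 and Ccl21a) were detected, Ccl21a as the most abundant. Their summed TPM was 21.6, 11.9, 17.8, 3.57 and 5.67 in the N mice, 14.2, 4.16, 7.18, 0.0656 and 13.8 in E, 0.255, 1.57 and 9.83 in Y, and 17.1, 25.9, 114, 3.42, 20.7 and 39.5 in EY mice 1 to 6. The group mean of this sum was 12.1 TPM for N and 36.7 TPM for EY. EY mouse 4, with the highest Pdpn of all 19 mice, had the lowest lymphatic sum of its group, whereas E mouse 4 was the lowest of all 19 mice in both and N mouse 1 the highest of its group in both. The neutrophil sums of EY mice 1 to 6 were 72.4, 67.97, 32.2, 125, 16.2 and 1.85 TPM beside Pdpn of 18.8, 7.99, 11.2, 29.7, 10.3 and 5.30 TPM, and those of the 3 Y mice 15.8, 2.48 and 25.0 TPM. The part of lymphatic endothelium, neutrophils or other cells in the Pdpn values was not tested.

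The start of the Pdpn gene is shown because podoplanin changed most in EY against N and because YAP acts through TEAD factors, often beside AP-1. RefSeq places the 250 bases before it at chr4:143299565-143299814 on the minus strand of build GRCm38.p6, and they were searched on both strands for the TEAD motif GGAATG and the AP-1 motif TGANTCA. Neither was found there, so no letter stands in capitals. Of all 32851 promoters of the table, 12.6% held GGAATG and 6.75% TGANTCA in the same window.
Pdpn: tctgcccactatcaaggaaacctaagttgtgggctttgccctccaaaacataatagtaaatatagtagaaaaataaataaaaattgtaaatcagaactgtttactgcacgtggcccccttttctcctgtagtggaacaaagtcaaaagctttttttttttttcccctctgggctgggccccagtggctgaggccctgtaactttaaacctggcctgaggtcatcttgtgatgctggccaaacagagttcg
These letters describe this window alone. The E-box CAGGTG was to be searched before Cdh1, which had no match in the promoter table.

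Syde1 had the profile nearest to Pdpn over the 19 mice, with a mean absolute difference of 0.471 on the log2 scale after the mean of all mice had been removed, against a median of 1.48 over the 15593 genes compared. Its TPM averaged 0.824, 1.18, 5.34 and 8.1 for N, E, Y and EY, and it rose by 3.21 in EY (adjusted p = 1.97e-06) and by 2.44 in Y (adjusted p = 0.00118). Steap1, Pkp2, which encodes the desmosomal plaque protein plakophilin, the transcript G930009F23Rik and the tetraspanin Tspan4 came next, with differences of 0.564, 0.566, 0.57 and 0.577. All 5 were called in EY and in Y against N. The choice by profile over all mice takes in the group differences, so these calls are not independent of it. After the mean of each group had been removed, so that only differences between mice of a genotype count, Syde1 was again the nearest (0.403 against a median of 0.705), followed by Ahsg, 4933412A08Rik, Ttpa and Pold4.

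The E-cadherin gene Cdh1 was higher, not lower, in EY epithelia. The N mice had 18.0, 18.1, 20.1, 13.1 and 12.6 TPM, the E mice 21.0, 20.0, 20.7, 18.7 and 18.96, the Y mice 26.3, 19.2 and 27.9, and the EY mice 27.6 to 50.1 with a median of 34.9 TPM. Every EY mouse was above every N and E mouse, the range of Y reached into both neighbours, and the order of the means was EY, Y, E and N. With 1516 to 5024 reads in each mouse, Cdh1 was the most precisely counted member. The rise in EY was 1.16 ± 0.15 on the log2 scale (adjusted p = 9.95e-06, interval 0.83 to 1.48), and it was called. EY against E gave 0.86 ± 0.15 (adjusted p = 0.000282), which missed the limit on the fold change alone. Y against N gave 0.58 ± 0.19 (adjusted p = 0.0415), EY against Y 0.58 ± 0.18 (adjusted p = 0.0555) and E against N 0.30 ± 0.16 (adjusted p = 0.424). In EY against Y the adjusted p was below 0.05 with the filter at 1 TPM, the replicate block, voom and exon lengths. The same held with the 3 N mice that carried both Krt14-CreERT and LSL-rtTA, and without N mouse 5 or EY mouse 5. In the other fits it was not below 0.05.

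The call on Cdh1 depended on the scaling. Over all genes tested, the median log2 fold change against N was 0.33 for EY, 0.13 for Y and 0.07 for E, so TPM placed most genes above control in EY. After median-of-ratios scaling, which brought the EY median to 0.01, Cdh1 was 0.78 ± 0.14 above N in EY (adjusted p = 0.000243), still beyond the spread between mice but short of the fold limit, and Pdpn was 2.82 ± 0.51 above N and called (adjusted p = 0.000264). The same scaling changed the split of called genes in EY from 2858 higher and 1299 lower to 1540 higher and 1974 lower. Cdh1 in EY also fell short of the fold limit with quantile normalization (0.75), with the 3 N mice that carried both Krt14-CreERT and LSL-rtTA (0.94) and with voom on the recovered reads (0.996).

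Nearest to Cdh1 over all mice were Rpn1, a subunit of the oligosaccharyltransferase complex, G3bp1 of stress granules and Sephs1, with mean absolute differences of 0.11, 0.112 and 0.116 against a median of 0.513. Within groups they were Puf60, Ruvbl2 and Marcks, at 0.085, 0.087 and 0.09 against 0.297. These are broadly expressed genes, and Rpn1 rose by 1.19 in EY (adjusted p = 4.55e-07).

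N-cadherin was near the limit of detection. Each N mouse had 1 to 8 reads of Cdh2, each E mouse 0 to 2, each Y mouse 0 to 4 and each EY mouse 0 to 13, and no mouse reached 0.1 TPM, so it did not enter the test. Without the filter its difference of EY from N was 0.00 ± 0.09 (adjusted p = 0.998). The pseudocount of 0.1 TPM was above every deposited Cdh2 value, so this fit was bound to give a difference near 0. With exon lengths the difference was -0.18 ± 0.48 (adjusted p = 0.799), and there the pseudocount was about the size of the N mean, 0.0979 TPM. Neither value shows that Cdh2 was unchanged. Its highest value, 0.0404 TPM, came from the 13 reads of EY mouse 3. In the 8 mice with no read, the 3 reads that a count of 0 allows correspond to at most 0.00896 TPM. As a share of Cdh1 TPM, Cdh2 ranged from 0% to 0.122% over the 19 mice as deposited, and from 0% to 0.228% with exon lengths. A switch from E- to N-cadherin was thus not visible in any group at this depth. Such floors cover counting error only.

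Snai2, which encodes Slug, the Snail-family factor of basal keratinocytes, was the abundant EMT factor and differed little between groups. Its group means were 43.7 ± 9.25 (N), 39.2 ± 9.04 (E), 40.8 ± 7.39 (Y) and 52.4 ± 19.04 TPM (EY), with 144 to 402 reads in each mouse. The EY mice fell on both sides of control, 3 of them at 67.3 to 69.2 TPM, above all other mice, and 2 at 26.8 and 32.7 TPM, near or below the lowest N mouse. The difference in EY was 0.19 ± 0.25 (adjusted p = 0.584, interval -0.33 to 0.71), and it turned to -0.19 after median-of-ratios scaling. Aplp2, Fbxo21 and Lrrc8d were nearest to Snai2 over all mice, at 0.203, 0.209 and 0.21 against a median of 0.507, and Ddb1, Cfl1 and Serinc2 within groups, at 0.171, 0.173 and 0.175 against 0.403.

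Snai1, which encodes Snail, was counted in few reads. The N mice held 0 to 2 reads, the E mice 0 to 6, the 3 Y mice 0 and the EY mice 0 to 11, with 3 reads worth 0.319 to 0.468 TPM. EY mice 1, 3 and 5 had 1.01, 1.63 and 1.28 TPM, EY mouse 4 had 0.278, and EY mice 2 and 6 had 0. The log2 difference of EY from N was 1.39 ± 0.77 (adjusted p = 0.164, interval -0.24 to 3.02). Its size rests on the pseudocount, with 0.527 at 1 TPM and 1.884 at 0.01 TPM. The differences from Y, where every mouse was at 0, rest on it likewise.

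Twist1, a basic helix-loop-helix factor of mesenchyme, was almost as sparse, with 0 to 10 reads per N mouse, 0 to 6 per E mouse, 0 to 3 per Y mouse and 1 to 27 per EY mouse. EY mice 3 and 6 stood out with 8.56 and 4.11 TPM, the other 4 EY mice had 0.297 to 1.22 TPM, and N mouse 1 had 2.64. The difference of EY from N was 1.25 ± 0.99 (adjusted p = 0.343). It was 0.024 when N was limited to the 3 mice with both Krt14-CreERT and LSL-rtTA, and 0.56 without N mouse 4. The genes nearest to Twist1 over all mice were Cxcl12, Bgn and Serping1 (0.68, 0.7 and 0.708 against a median of 1.504), of which biglycan (Bgn) is a matrix proteoglycan, and within groups Cxcl12, 4833417C18Rik and Bgn (0.629, 0.666 and 0.667 against 1.32).

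The zinc finger factors Zeb1 and Zeb2 were low in TPM but had more reads than Snai1 and Twist1, at 5 to 81 and 4 to 227 reads in each mouse. The means for N, E, Y and EY were 0.0947 ± 0.0776, 0.0493 ± 0.0289, 0.0345 ± 0.0154 and 0.134 ± 0.0951 TPM for Zeb1, and for Zeb2 0.345 ± 0.357, 0.238 ± 0.185, 0.0795 ± 0.0242 and 0.428 ± 0.188 TPM. In both genes Y was the lowest group and all 3 Y mice lay within or below the range of N. EY differed from N by 0.26 ± 0.29 in Zeb1 (adjusted p = 0.513) and by 0.46 ± 0.44 in Zeb2 (adjusted p = 0.443). Without single mice these ran from 0.087 to 0.441 and from 0.24 to 0.845, each highest without N mouse 1. With TPM from exon lengths, an alternative chosen after seeing the data that frees Zeb1 from most of the pseudocount, these differences were 0.47 ± 0.55 (adjusted p = 0.543) and 0.56 ± 0.59 (adjusted p = 0.487).

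Vimentin and fibronectin varied widely between the mice of the N and E groups. Vim had 121.5, 61.4, 30.3, 24.0 and 25.6 TPM in N, 54.4, 51.2, 49.4, 9.24 and 117 in E, 34.9, 31.4 and 38.0 in Y, and 39.3 to 148 with a median of 61.0 in EY. N mouse 1, E mouse 5 and EY mouse 6 were the 3 high mice, and all 4 groups overlapped. The difference of EY from N was 0.71 ± 0.54 (adjusted p = 0.321, interval -0.43 to 1.85) and 0.192 with the 3 N mice that carried both Krt14-CreERT and LSL-rtTA, and for E it was 0.02 ± 0.56 (adjusted p = 1).

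Fn1 had 20.9, 11.8, 3.58, 1.43 and 1.34 TPM in N, 4.36, 3.98, 2.72, 0.356 and 9.36 in E, 0.906, 0.676 and 0.656 in Y, and 1.84 to 6.43 with a median of 3.20 in EY. It was the single member whose mean was highest in N, and the 3 Y mice were below every mouse of N and EY. Y differed from N by -2.45 ± 0.91 (adjusted p = 0.0765) and EY from N by -0.39 ± 0.75 (adjusted p = 0.72). The difference in Y was -3.54 with the 3 N mice that carried both Krt14-CreERT and LSL-rtTA, and -1.90 without N mouse 1. Its adjusted p was below 0.05 with those 3 N mice, with the replicate block and without N mouse 5 or E mouse 4. In the other fits it was not, and Fn1 was called in none. Without N mouse 1 the difference in EY was 0.16, and with the 3 N mice that carried both Krt14-CreERT and LSL-rtTA it was -1.48.

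**Figure D3:**
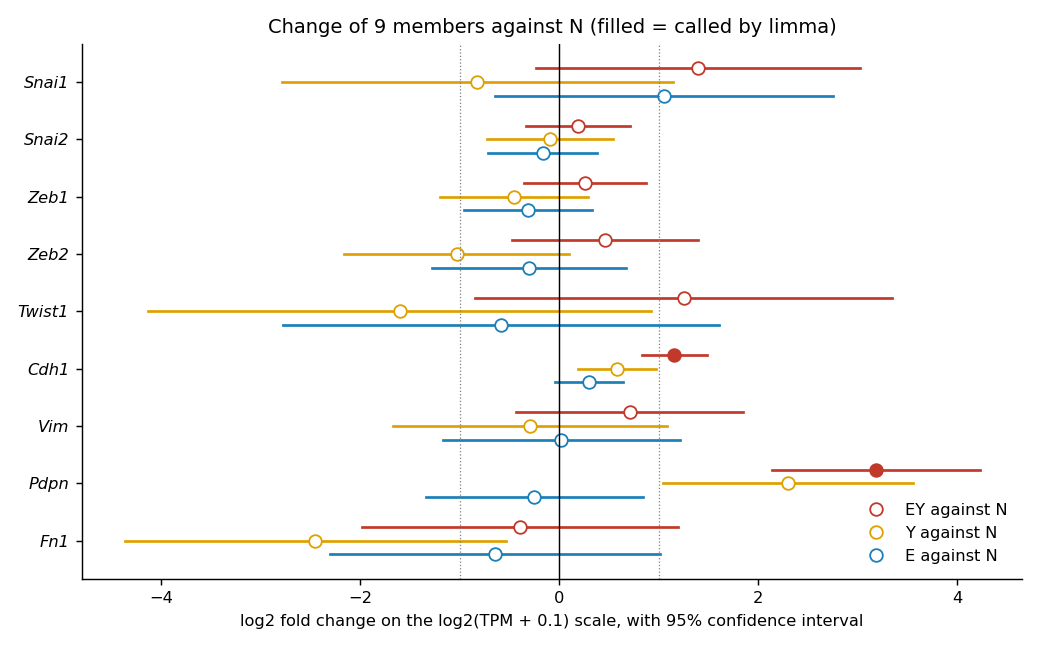
Log2 fold change of the 9 members tested in EY, Y and E against N on the log2(TPM + 0.1) scale, with 95% confidence intervals from limma; filled points were called, and dotted lines mark a change of 1 in either direction. Cdh1 (1.16) and Pdpn (3.18) in EY are the filled points, and the intervals of Snai1 and Twist1 are the widest in EY.

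By comparison, 2 of the 9 members tested, Cdh1 and Pdpn, were called in EY against N, where 18.3% of all genes were called, and the same 2 had an adjusted p below 0.05, where 41.9% of all genes did. A share of 2 in 9 is close to the background, so it carries no statement about the members as a group. In EY against E, Pdpn was called (12.8% of all genes), and Pdpn and Cdh1 were below 0.05 (35.3% of all genes). In Y against N limma called 0 members (4.58% of all genes), 2 had an adjusted p below 0.05 (16.5%), and 3, Cdh1, Pdpn and Fn1, an unadjusted p below 0.05 (28.9%). The count of 2 was 0 without Y mouse 3 and 1 without Y mouse 1 or 2. With median-of-ratios scaling, quantile normalization or the groups compared alone it was 1, as Cdh1 dropped out. The same held without N mouse 4, E mouse 2, E mouse 3 or EY mouse 2. Without E mouse 4 it was 3, with Fn1 added. With the 3 N mice, the replicate block or without N mouse 5, Fn1 stood in place of Cdh1.

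E against N had 0 members called (1.2% of all genes) and 0 with an unadjusted p below 0.05 (14.8%) in limma. EY against Y had 0 called (2% of all genes) and 5, Snai1, Zeb2, Twist1, Cdh1 and Fn1, with an unadjusted p below 0.05 (23.9%), all higher in EY. That count of 5 fell to 1 without Y mouse 2 and to 2 without Y mouse 3. It was 3 without Y mouse 1 or EY mouse 3 and with a pseudocount of 1 TPM. The interaction had 0 called (0.176% of all genes) and 4, Zeb1, Zeb2, Twist1 and Fn1, with an unadjusted p below 0.05 (13.5%), all above 0. Leaving out N mouse 1 or 2, E mouse 4, Y mouse 2 or 3 or EY mouse 6 lowered this count to 1. A pseudocount of 1 TPM also lowered it to 1. The filter at 1 TPM, quantile normalization, voom and leaving out E mouse 2 or EY mouse 3 lowered it to 2. Limma voom on the recovered reads called 0 members in Y against N, E against N, EY against Y and the interaction as well.

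The 4 genes of that last set are known from mesenchyme and blood cells as well as from EMT, and markers of such cells differed between the same mice. All 8 fibroblast markers were detected, with Dcn as the most abundant. Their summed TPM was 315, 219, 91.1, 77.9 and 73.2 in N, 105, 87.8, 71.2, 64.3 and 118 in E, 27.3, 50.5 and 41.3 in Y, and 78.9, 87.4, 164, 32.5, 61.6 and 169 in EY mice 1 to 6. Every Y mouse was below every N and E mouse, and the highest EY mice were 3 and 6. These were also the highest EY mice in Twist1, Zeb1 and Zeb2, but in Fn1 the highest was EY mouse 1.

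The 7 macrophage and monocyte markers, also all detected and led by Cd68, summed to 234, 73.6, 41.3, 38.1 and 33.3 TPM in N, 106, 98.7, 113, 29.8 and 170 in E, 50.6, 39.9 and 68.3 in Y, and 96.0 to 151 with a median of 137 in EY. N mouse 1, the highest of its group in every member but Cdh1, was also the highest in both of these lists, and in the keratinocyte, endothelial, neutrophil, Langerhans and melanocyte lists as well. E mouse 4, with the lowest Vim, Zeb2 and Fn1 of all mice, had the lowest macrophage sum of all mice. The part of these cells in the members' values was not tested.

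**Figure D4:**
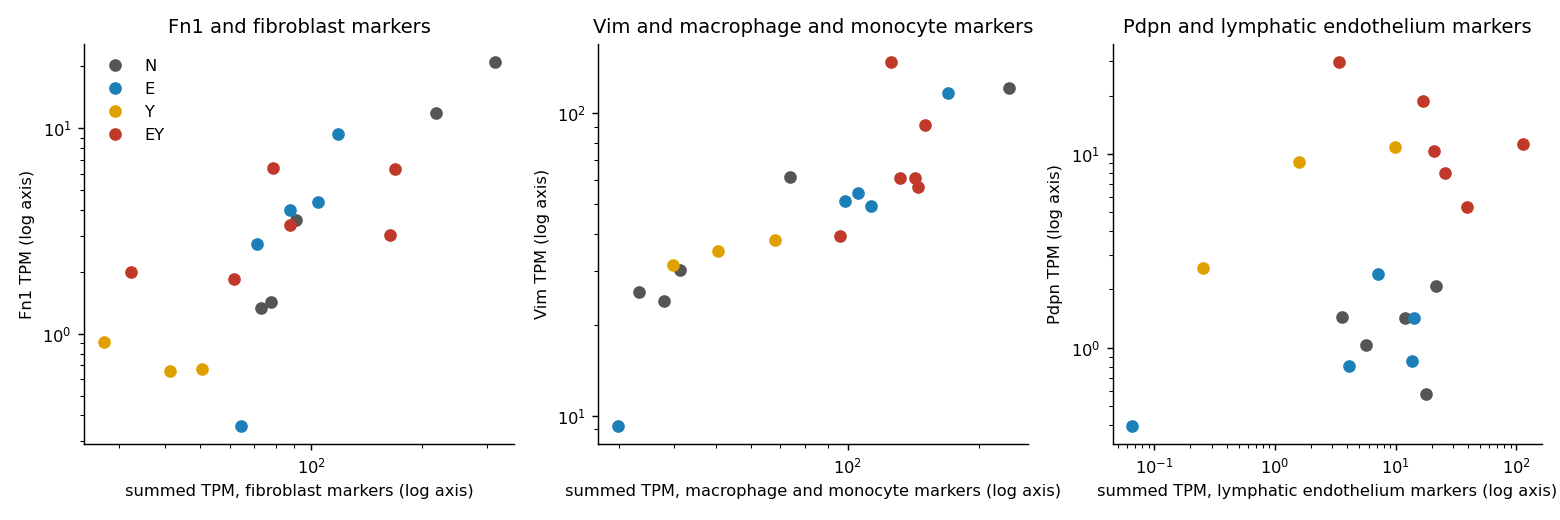
Deposited TPM of Fn1, Vim and Pdpn (vertical, log axis) against the summed TPM of fibroblast, macrophage and monocyte, and lymphatic endothelial markers (horizontal, log axis) in the 19 mice, colored by genotype. E mouse 4 (Vim 9.24 TPM, macrophage sum 29.8 TPM) and N mouse 1 (121.5 and 234 TPM) lie at opposite ends of the middle panel, and in the Pdpn panel every EY mouse lies above every N mouse.

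The profiles nearest to Fn1 were the collagens Col1a1 and Col1a2 and the leukocyte integrin Itgb2 over all mice (0.443, 0.447 and 0.492 against a median of 1.23), and Col1a2, Col1a1 and Fstl1 within groups (0.305, 0.318 and 0.367 against 0.928). For Vim the nearest were Csf1r, the receptor of a macrophage growth factor, Fgl2 and the leukocyte gene Lsp1 over all mice (0.3, 0.321 and 0.325 against 0.786), and Cfp, Mmp19 and Fmnl1 within groups (0.289, 0.289 and 0.293 against 0.666). Col1a1, Col1a2 and Csf1r belong to the fibroblast and macrophage lists above.

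Markers of the tissue itself fit its label as epithelium. The 7 keratinocyte markers, led by Krt13, summed to 73122 to 140492 TPM among N mice, 70538 to 121655 among E, 57735 to 106596 among Y and 45722 to 62514 among EY mice. Every EY mouse but 1 was below every mouse of the other groups in this sum, while Cdh1 was higher. A sum of TPM weighs its most abundant genes most, here Krt13, and the 7 markers were not taken singly. The share of keratinocytes in the tissue was not tested. Skeletal muscle markers, led by Acta1, had ranges of 6.84 to 223 TPM (N), 7.58 to 116 (E), 5.77 to 123 (Y) and 29.6 to 1115 (EY), and smooth muscle and pericyte markers, led by Des, 6.29 to 24.5, 6.95 to 18.2, 7.55 to 34.7 and 9.66 to 108 TPM. EY mouse 3 was the highest mouse in both muscle lists, in both endothelial lists and in Snai1, Zeb1, Twist1 and Cdh2.

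Of the other lists, blood endothelial markers, led by Cldn5, summed to at most 9.19 TPM and the 3 melanocyte markers measured, led by Pmel, to at most 9.71 TPM in any mouse. T cell markers, led by Trac, summed to 0.347 to 3.51 TPM in N mice and 4.25 to 7.84 TPM in EY mice, with every EY mouse above every N mouse. The ranges were 0.299 to 4.31 TPM in E and 1.35 to 3.93 TPM in Y, so E and EY overlapped. Langerhans and dendritic cell markers, led by Cd74, ran from 40.8 to 202 TPM in N and from 61.6 to 200 TPM in EY. Neutrophil markers, led by Retnlg, had medians of 1.59 (N), 2.46 (E), 15.8 (Y) and 50.1 TPM (EY). Ly6g of the neutrophil list was detected in EY mice alone.

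Related genes were then counted by list against N. The lists were chosen with earlier results of these data known, so a share above that of all genes is a description and no independent support. Of 30 genes linked to partial EMT in squamous carcinoma, 15 were called higher and 1 lower in EY, where 18.3% of all genes were called in either direction, with a median log2 fold change of 0.96 against 0.33 for all genes. In Y 6 were called higher (4.58% of all genes in either direction, median 0.56 against 0.13) and in E none (median 0.17 against 0.07). The count in Y fell to 2 with the 3 N mice that carried both Krt14-CreERT and LSL-rtTA and to 3 without Y mouse 3. Plaur, the urokinase receptor, rose from a mean of 0.931 ± 0.635 TPM (N) to 5.08 ± 1.33 (Y) and 16.3 ± 8.09 (EY), by 4.07 ± 0.42 in EY (adjusted p = 5.08e-07). Pthlh, a secreted relative of parathyroid hormone, rose by 3.84 ± 0.68 in EY and by 3.47 ± 0.81 in Y (adjusted p = 0.000167 and 0.00724).

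The actin crosslinker Actn1 had means of 1.38 ± 0.505 (N), 8.65 ± 2.8 (Y) and 14 ± 3.42 TPM (EY), a rise of 3.29 ± 0.27 in EY (adjusted p = 3.76e-08). The matrix protein gene Thbs1 rose by 2.97 ± 0.45 and the activin subunit Inhba by 2.96 ± 0.63 in EY (adjusted p = 4.15e-05 and 0.00101), and in Y neither was called (adjusted p = 0.0199 and 0.0369). The single gene of the list called lower in EY was Serpine2, at -2.15 ± 0.53 (adjusted p = 0.00316), named after its value was seen. It was about as low in Y and E, at -2.12 ± 0.64 and -2.08 ± 0.555 (adjusted p = 0.0309 and 0.0468), though not called there. EY differed from Y by -0.04 and from E by -0.08 in this gene. In EY against E 14 of the 30 were called higher (12.8% of all genes in either direction), and in EY against Y 0 were called (2% of all genes).

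**Figure D5:**
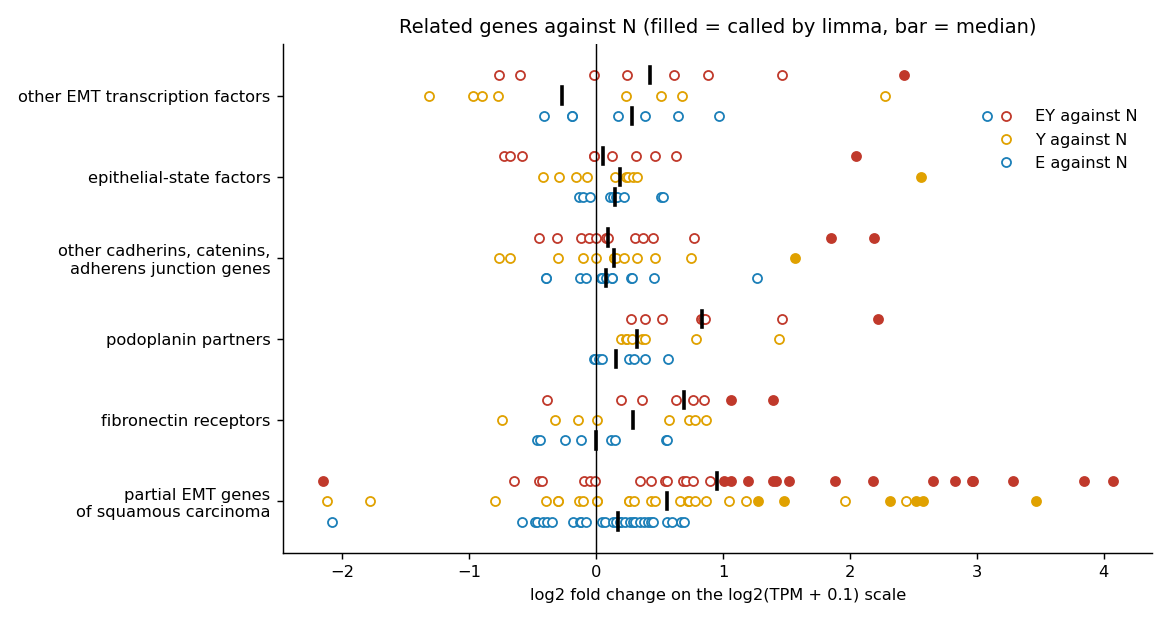
Log2 fold change against N of every tested gene of 6 related lists in EY, Y and E epithelia on the log2(TPM + 0.1) scale; filled points were called and black bars are list medians. In the partial EMT list 15 genes lie above 0 as filled points in EY, 6 in Y and none in E.

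Of 9 other EMT transcription factors, 8 were tested and 1, Snai3, was called higher in EY, no larger a share than the 18.3% of all genes (0.195 ± 0.257 TPM in N, 1.51 ± 1.31 in EY, log2 difference 2.43 ± 0.69, adjusted p = 0.00857). This call was lost in 12 of the 19 fits that left out a mouse and with median-of-ratios scaling, where Tcf4 was called lower instead (-1.07). Over all alternatives the count ran from 0, for instance with a pseudocount of 1, to 3 with voom (Snai3 higher, Klf8 and Tcf4 lower). The list had a median of 0.43 in EY against 0.33 for all genes, and -0.27 in Y against 0.13. Tcf3, at 7.51 ± 1.57 TPM in N and 8.87 ± 1.64 in EY, did not pass (adjusted p = 0.238), nor did Prrx1 (adjusted p = 0.455). Tcf4 averaged 0.736 ± 0.308 TPM (N) and 0.399 ± 0.199 TPM (EY) (adjusted p = 0.0294). Gsc, the goosecoid homeobox gene, was at 0 in all 5 N mice and at 0.966 ± 0.765 TPM in E, with an adjusted p of 0.0242 in E that did not meet the call.

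Of 10 factors that maintain the epithelial state, all tested, 1 was called in EY and in Y (18.3% and 4.58% of all genes), higher in both, the ETS factor Elf3, with means of 17.1 ± 4.29 (N), 25.9 ± 11.9 (E), 99.9 ± 10.1 (Y) and 70.9 ± 15.8 TPM (EY) (log2 change 2.05 ± 0.22 in EY, adjusted p = 8.3e-07, and 2.56 ± 0.26 in Y, adjusted p = 7.7e-06). The splicing regulator Esrp2 stood at 132 ± 22.3 TPM in N and 130 ± 15.3 in EY (adjusted p = 0.937), and Ehf at 51.6 ± 11.3 and 58.3 ± 20.4 TPM (adjusted p = 0.68). Klf5 was 0.63 ± 0.09 above N in EY (adjusted p = 2.29e-05) and Ovol1, a repressor of EMT factors, 0.73 ± 0.21 below it (log2 difference -0.73, adjusted p = 0.00894), both within the fold limit. Grhl1 and Grhl3 were also lower in EY (-0.68 ± 0.11 and -0.58 ± 0.15, adjusted p = 8.73e-05 and 0.00497), so that 3 of the 10 were higher and 3 lower at an adjusted p below 0.05 (41.9% of all genes in either direction). With median-of-ratios scaling Ovol1 and Grhl1 were called lower in EY (-1.10 and -1.05), as they were with quantile normalization. Against E, Ovol1 was called lower in EY (-1.24 ± 0.21, adjusted p = 0.00015). The median of the list was 0.06 in EY against 0.33 for all genes.

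Among 13 tested genes of other cadherins, catenins and adherens junctions, 2 were called in EY, both higher, which is no larger a share than the 18.3% of all genes. Cdh3, the P-cadherin of basal cells, rose from 1.59 ± 0.507 TPM (N) to 4.74 ± 0.28 (Y) and 7.47 ± 1.65 (EY), by 2.19 ± 0.19 in EY and 1.57 ± 0.23 in Y (adjusted p = 7.5e-08 and 0.000173). Its call in Y was lost with the groups compared alone. Epcam, an epithelial adhesion molecule, had means of 13.2 ± 5.11, 30.6 ± 7.01, 21.6 ± 7.85 and 46.5 ± 13.4 TPM for N, E, Y and EY, and rose by 1.85 ± 0.26 in EY (adjusted p = 2.06e-05). In E it was 1.27 ± 0.28 above N with an adjusted p of 0.0134. Ctnnb1, Jup and Nectin4, the next by deposited TPM, had 138 ± 11.9, 107 ± 14.9 and 53.8 ± 9.52 TPM in N and log2 differences of 0.08, -0.12 and -0.31 in EY, none of them called. The median of the list was 0.09 in EY.

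Of 8 tested podoplanin partners, 1 was called in EY, no larger a share than the 18.3% of all genes. This was moesin (Msn), which ties membrane proteins to actin, with means of 4.39 ± 3.08 (N), 10.8 ± 3.19 (Y) and 19.4 ± 7.98 TPM (EY) and a rise of 2.22 ± 0.34 (adjusted p = 4.85e-05). At an adjusted p below 0.05, 7 of the 8 were higher in EY and 4 in Y, where 41.9% and 16.5% of all genes passed in either direction, and the median of the list was 0.83 in EY against 0.33. The related linker ezrin (Ezr) was 0.86 ± 0.14 above N in EY and 0.79 ± 0.17 in Y (adjusted p = 6.27e-05 and 0.00335). Cd44 was 0.52 ± 0.18, Rhoa 0.38 ± 0.08 and Cd9 0.27 ± 0.09 above N in EY (adjusted p = 0.0262, 0.000534 and 0.0234), of which the latter 2 are near the median shift of all genes.

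Fibronectin receptors had 2 of 8 called in EY, both higher, against 18.3% of all genes. Both are also among the 15 partial EMT genes, and both calls were lost with quantile normalization. In 3 other alternatives and in 3 of the 19 fits without a mouse, 1 of the 2 was lost. Itgb1, the common beta chain of many matrix receptors, averaged 20.3 ± 3.75 (N), 14.9 ± 4.06 (E), 33.8 ± 6.15 (Y) and 52.8 ± 5.67 TPM (EY), with a rise of 1.39 ± 0.16 in EY (adjusted p = 2.26e-06). Itgb6, an epithelial integrin, rose by 1.06 ± 0.24 (adjusted p = 0.00144). Itgav was 0.85 ± 0.14 above N (adjusted p = 0.000126), short of the fold limit, and Itga5 and Sdc4 did not pass (adjusted p = 0.0926 and 0.239). The median was 0.70 in EY against 0.33. Itgb1 had an interaction of 1.12 ± 0.25 with an adjusted p of 0.0468, which missed the call.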

How the data were processed

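The authors measured poly-A RNA of 19 tongue epithelia on an Illumina instrument and, per the submitters' processing notes and the methods, aligned reads with STAR 2.7.9 to GRCm39, sorted them with SAMtools 1.7 and counted them per gene with HTSeq 0.13.5. The authors deposited TPM per gene and mouse, which sum to 1000000 in each mouse. How gene length entered the TPM is not given in the sources used here. The recovered reads reproduce every value of all 24680 genes above 0 to within 1e-05 of a whole number. Exon lengths came from GENCODE vM21 (GRCm38), by gene symbol, for 23805 genes that hold 98.3% of the reads.

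Groups were taken from the sample titles. All 19 mice entered 1 limma 3.58.1 model (R 4.3.3, eBayes with trend) with a mean per group and no covariate, on log2(TPM + 0.1), and the model was tested on simulated data. The p-values measure the spread between mice. Each member was named, with up to 5 genes of each of 6 related lists (those called with the largest change in EY, then the most abundant) and the nearest genes, 5 for Pdpn and 3 for each other member with a mean of at least 1 TPM, among genes with a mean of at least 1 TPM. Markers of 12 cell types were summed. The members and lists were chosen with earlier results of these data known. The alternatives were pseudocounts of 1 and 0.01 TPM, a filter at 1 TPM and none, median-of-ratios scaling, quantile normalization, the 3 N mice with both Krt14-CreERT and LSL-rtTA, the groups compared alone, a replicate block, an adjusted p below 0.05 with no fold limit, limma voom on the recovered reads, leaving out each mouse in turn, and, chosen after seeing the data, TPM from exon lengths.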

Additional observations from a re-analysis of the deposited data

Results flagged for a closer look

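In 3 of the 30 sets of N, E or EY values, a mouse stood apart from its group. The measure was the ratio of its gap to the group's range. Chance passes the limit used in about 1 of 20 sets of normally distributed values. TPM, above all those from few reads such as Cdh2 in EY, need not follow that rate. Zeb2 in N mouse 1 was 0.967 TPM, with the next N mouse at 0.302. Zeb1 in E mouse 5 was 0.099 TPM, with the next E mouse at 0.0507. Cdh2 in EY mouse 3 was 0.0404 TPM, from 13 reads, with the next EY mouse at 0.00606. N mouse 1 and E mouse 5 had the highest fibroblast and macrophage sums of their groups (315 and 234 TPM, and 118 and 170 TPM), and EY mouse 3 had the highest skeletal muscle sum of all mice (1115 TPM). Their part in these values was not tested. The Y group, with 3 mice, was not examined in this way.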

How the results depend on the processing

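Pdpn in EY against N was called under all 31 alternatives, from 2.52 with a pseudocount of 1 to 3.41 with the replicate block or without EY mouse 6. The number of members called in EY against N was 2 and fell to 1, Pdpn, with median-of-ratios scaling, quantile normalization, the 3 N mice with both alleles and voom, because Cdh1 missed the fold limit there. Leaving out single mice kept it at 2. In Y against N it was 0, rose to 2 at an adjusted p below 0.05, where Pdpn at 2.30 counts, and ranged from 0 to 1 without single mice (Pdpn 1.91 to 2.93). In EY against E it rose from 1 to 2 at an adjusted p below 0.05. In E against N, EY against Y and the interaction it stayed at 0 under each alternative run.

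Uncalled values near 0 changed sign, and the cause was not tested. In EY against N Snai2 was -0.19 with median-of-ratios scaling and -0.23 with quantile normalization, and Zeb1 -0.021 and Zeb2 -0.057 with the 3 N mice. Vim in E against N was -0.091, -0.12 and -0.496 with these 3 settings, and Fn1 in EY against E -0.008 and -0.031 with the former 2. Without single mice, Fn1 ran from -0.81 to 0.16 in EY against N, from -1.06 to 0.033 in E against N and from -0.42 to 0.67 in EY against E, Vim from -0.50 to 0.086 in Y and from -0.34 to 0.58 in E, Snai2 from -0.22 to 0.039 in Y, Zeb2 from -0.57 to 0.083 and Pdpn from -0.54 to 0.040 in E, and Snai1 from -0.13 to 0.78 in EY against E.

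Mice with the same number showed no pairing, with correlations of their deviations from -0.04 to 0.08 in 24 pairs. With mouse number as a replicate block the members called stayed at 2, 0, 0, 0, 1 and 0 in the 6 comparisons, and Pdpn was 3.41 in EY and 2.22 in Y. These numbers are those of the sample titles, which name no litter or batch. Number 6 occurs in EY alone, so the block sets EY mouse 6 aside, and Pdpn in EY was likewise 3.41 without that mouse. The count of all genes called in Y against N fell from 1042 to 615 with the groups compared alone, less far with the 3 N mice, and to 639 without Y mouse 3, that of E against N from 274 to 150 with the groups compared alone, and that of EY against Y from 454 to 211 with them and to 200 without Y mouse 1. That of the interaction rose from 40 to 118 with voom and to 73 without EY mouse 3. Of the partial EMT list, the count in Y fell from 6 to 2 with the 3 N mice and to 3 without Y mouse 3, and fibronectin receptors in EY went from 2 to 0 with quantile normalization. TPM from exon lengths kept every member on the same side of the call. Counts of 0 to 27 reads limit Snai1, Twist1 and Cdh2.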
